A study of Homo sapiens with 6 samples.

Results

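Natural killer (NK) cells recognize tumor cells through ligands on the tumor cell surface, and 10 genes for such ligands were followed here in RPMI8226, an established human multiple myeloma cell line. The genes were MICA, MICB, ULBP1, ULBP2, ULBP3, PVR, NECTIN2, NCR3LG1, CLEC2B and CD48. They were taken by gene symbol, and each symbol matched 1 Ensembl identifier on a primary chromosome, so that 10 of the 63677 genes in the table were members. RNA-Seq was done on cells given 100 nM GST-PTR1 or 100 nM GST for 6 hr, with 3 libraries per treatment. In GST-PTR1, glutathione-S-transferase (GST) carries the PTR1 domain of HAPLN1, an extracellular matrix protein, and the fusion was made in bacteria. GST alone was the control, and cells without either protein were not among the samples. No NK cells were added, and RNA was measured, not protein on the cell surface.

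NK cells weigh signals from activating and inhibitory receptors when they meet another cell. MICA, MICB and the ULBP proteins are ligands of the activating receptor NKG2D, and they are known as molecules that stressed and transformed cells display. PVR (CD155) and NECTIN2 (CD112) bind the activating receptor DNAM-1 (CD226) as well as inhibitory receptors such as TIGIT. NCR3LG1 (B7-H6) binds NKp30, CLEC2B (AICL) binds NKp80, and CD48 binds the SLAM family receptor CD244. Malignant plasma cells are among the targets on which NKG2D and DNAM-1 ligands have been described.

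Library totals ran from 15202503 to 23453473 counts for GST and from 22874133 to 44688737 for GST-PTR1, so the treated libraries were on the whole deeper. The part of depth in the results was not tested apart from a fit with all libraries thinned to the smallest total. Values below are listed in order of rising total within each treatment. All 8 plasma cell markers were above 1 RPKM in every library, of which 2 were higher (9.15% of all genes tested) and 3 lower (11.4%) with GST-PTR1, whereas the NK cell markers NCR1 and PRF1 and the T cell marker CD2 had 0 counts in all 6 libraries. The summed level of the 6 NK cell markers was 0.00936 to 0.174 RPKM with GST and 0.0312 to 0.0372 with GST-PTR1. In a bulk sample, fewer cells with a transcript and less of it per cell cannot be told apart.

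With GST-PTR1, NECTIN2 and ULBP2 transcripts were higher, by 3.65-fold and 2.80-fold, and both stayed under 1 RPKM (reads per kilobase of exon, relative to library totals scaled by TMM). MICB, MICA and PVR, the most abundant of the 10 by mean RPKM in both treatments, did not pass the test. Differences were tested with edgeR's quasi-likelihood test over 16926 genes, with Benjamini-Hochberg adjustment and a threshold of 0.05. Of the 10 members, 2 were higher, against 9.15% of all genes tested, and 0 were lower, against 11.4%. Either way it was 2 of 10, against 20.6%. Both that were higher changed at least 2-fold, against 3.68% of all genes, and 0 were at least 2-fold lower, against 3.85%. At an unadjusted p under 0.05 there were 7 members, against 35.2% of all genes, with 4 higher (16.4% of all genes) and 3 lower (18.8%). Like the edgeR test, DESeq2 and limma's voom called 0 members lower, against 1937 and 1972 of all 16926 genes. The median log2 fold change was 0.09 over the members and 0.01 over all genes tested. ULBP2 and NECTIN2 passed the filter on low counts only because of their GST-PTR1 libraries, so these counts and the median are given as a description.

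**Figure D1:**
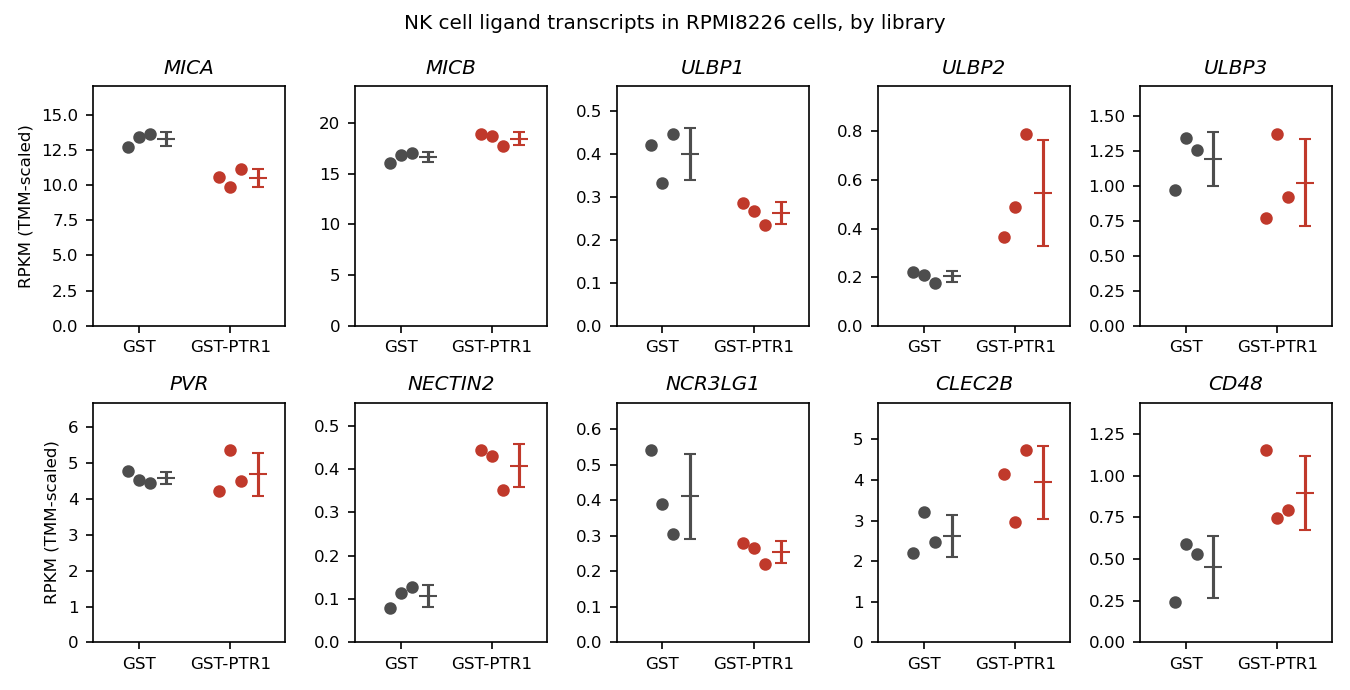
Level of each ligand transcript in RPKM on TMM-scaled totals (vertical axes, linear from 0, a separate scale per gene) in the GST libraries (grey) and the GST-PTR1 libraries (red). Points are the 3 libraries of a treatment in order of rising total, and the bar beside them is the mean ± SD; the GST-PTR1 points lie wholly above the GST points for MICB, ULBP2, NECTIN2 and CD48 and wholly below for MICA, ULBP1 and NCR3LG1, while the direction of MICB reverses on library totals.

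MICA and MICB, neighbouring genes of the major histocompatibility complex, encode NKG2D ligands related to class I molecules. MICA lies at chr6:31371356-31383092 and MICB at chr6:31462658-31478901 (GRCh37, plus strand). MICB was the most abundant member, at 16.1, 16.8 and 17.0 RPKM with GST and 18.9, 18.7 and 17.7 RPKM with GST-PTR1. Every GST-PTR1 library lay above every GST library on TMM-scaled totals, with a log2 fold change of 0.15 (SE 0.10, 95% interval -0.06 to 0.36, edgeR adjusted p = 0.293) that changed sign on library totals. MICA followed at 12.7, 13.4 and 13.6 RPKM with GST and 10.6, 9.85 and 11.1 RPKM with GST-PTR1. The treatments again did not overlap, in the other direction, with a log2 fold change of -0.33 (SE 0.11, 95% interval -0.59 to -0.08) and an edgeR adjusted p of 0.0619.

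The balance between these genes can be read within each library, without any scaling between libraries. For every 100 MICA reads there were 260, 258 and 257 MICB reads under GST and 369, 391 and 328 under GST-PTR1. These reads were not corrected for exon length, 2854 bases for MICB and 1386 for MICA. The ratios therefore serve to compare treatments, not the levels of the 2 genes. The log2 ratio of MICB to MICA was 1.37 ± 0.01 (SD, n = 3) with GST and 1.85 ± 0.13 (SD, n = 3) with GST-PTR1, a difference of 0.48 with no overlap. The exact permutation test (two-sided) gave p = 0.1, the smallest that 3 libraries against 3 allow. Of MICA's exonic 50-base windows, 1.89% also occur in MICB.

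The 300 bases around the RefSeq start site of each gene (250 before, 50 after; GRCh38.p14, plus strand, chr6:31403345-31403644 for MICA and chr6:31497895-31498194 for MICB) were 87.0% identical over 284 aligned bases. They are shown because the ratio of these near-copies did not overlap between treatments. Capitals mark a match to GAANNTTC (both strands), paired units of the heat shock element, an element that has been described in MICA and MICB promoters.
MICA: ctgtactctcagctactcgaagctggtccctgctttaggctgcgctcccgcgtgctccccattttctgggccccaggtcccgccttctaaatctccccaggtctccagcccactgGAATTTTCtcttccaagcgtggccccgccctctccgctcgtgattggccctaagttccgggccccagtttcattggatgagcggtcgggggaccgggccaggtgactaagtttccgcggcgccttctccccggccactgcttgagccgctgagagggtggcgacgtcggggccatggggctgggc
MICB: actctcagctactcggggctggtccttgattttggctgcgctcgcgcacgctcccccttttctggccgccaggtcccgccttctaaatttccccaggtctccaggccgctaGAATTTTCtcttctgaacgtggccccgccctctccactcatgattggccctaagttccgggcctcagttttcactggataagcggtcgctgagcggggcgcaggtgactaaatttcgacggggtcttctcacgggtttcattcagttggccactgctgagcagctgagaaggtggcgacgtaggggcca
The match began 135 bases before the start site in MICA and 139 before it in MICB, with the same 8 letters. Of the 10 members, 9 had a promoter in the table, and CLEC2B had no entry. On either strand GAANNTTC was in 3 of these 9 (CD48 besides MICA and MICB) and in 6.77% of 35116 RefSeq promoters of the same length. A strict form of the κB pattern, GGNNTTTCC, which requires the letters TTT, was in 0 of 9 and in 6.26% of all promoters. Its loose form GGNNNNNCC, which contains it, was in 8 of 9 and in 78% of all. Stretches without TTT, such as GGATTCCCC in the NCR3LG1 promoter, match the loose form only. The interferon-response core GAAANNGAA was in 0 of 9 and in 8.11% of all. These are matches of letters only.

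The ULBP genes encode NKG2D ligands of a family on the long arm of chromosome 6, several of them anchored to the membrane by a lipid tail. ULBP2 (chr6:150263136-150270371, GRCh37, plus strand) had 5, 6 and 6 counts with GST and 11, 18 and 42 counts with GST-PTR1. In RPKM these were 0.222, 0.211 and 0.178 against 0.366, 0.488 and 0.789, so that each GST-PTR1 library exceeded each GST library and the deepest held the most. ULBP2 rose by a log2 fold change of 1.49 (SE 0.41, 95% interval 0.60 to 2.41, edgeR adjusted p = 0.0250). Since 0 of its GST libraries reached the filter on low counts, it was tested only through the treatment in which it was high.

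The call for ULBP2 rested on few reads. It was lost without the GST-PTR1 library of 44688737 counts (log2 fold change 1.10, edgeR adjusted p = 0.125), without the GST library of 20077280 counts (adjusted p = 0.0658) and without that of 23453473 counts (adjusted p = 0.0992). DESeq2 gave an adjusted p of 0.0549. Among the 50-base windows of ULBP2 exons, 29.4% also occur in RAET1L, a neighbouring family member, and reads mapped to several places were not counted. RAET1L itself had 0 counts in every GST library and 6, 7 and 9 counts in the GST-PTR1 libraries. That was 5.17-fold above a floor of 3 counts over the GST group, with no counting error allowed for the GST-PTR1 reads. RAET1L was singled out after its values were seen, and since it shares windows with ULBP2 its reads are uncertain too. The promoter of ULBP2 (GRCh38.p14, chr6:149941764-149942063, plus strand) is printed because its transcript passed the test, with capitals for matches to GGNNNNNCC on either strand, some of them overlapping.
ULBP2: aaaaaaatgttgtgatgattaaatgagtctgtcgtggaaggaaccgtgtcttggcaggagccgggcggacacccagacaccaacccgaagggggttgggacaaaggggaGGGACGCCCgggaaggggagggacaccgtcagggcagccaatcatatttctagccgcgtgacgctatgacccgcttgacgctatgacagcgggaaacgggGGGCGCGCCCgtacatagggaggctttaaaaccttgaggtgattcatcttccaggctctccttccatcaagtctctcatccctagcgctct

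ULBP1 and ULBP3 did not pass the test, and 6.85% and 12.4% of their 50-base windows occur in RAET1K. ULBP1 (chr6:150285143-150294846, plus strand) stood at 0.420, 0.331 and 0.446 RPKM with GST and 0.286, 0.268 and 0.234 RPKM with GST-PTR1. All GST-PTR1 libraries were lower, but the log2 fold change of -0.62 (SE 0.26, 95% interval -1.19 to -0.06) had an edgeR adjusted p of 0.109. ULBP3 (chr6:150384286-150390231, minus strand) stood at 0.972, 1.34 and 1.26 RPKM with GST and 0.772, 1.37 and 0.924 RPKM with GST-PTR1. Its treatments overlapped, with a log2 fold change of -0.23 (95% interval -0.86 to 0.40, edgeR adjusted p = 0.599). For every 100 ULBP1 reads (3142 exon bases) the GST libraries held 24, 29 and 18 ULBP2 reads (1349 exon bases) and the GST-PTR1 libraries 56, 79 and 144, again not corrected for length. That log2 ratio differed by 1.87 between treatments with no overlap (exact permutation p = 0.1, two-sided), whereas the ratio of ULBP3 to ULBP1 differed by 0.34 with overlap (exact permutation p = 0.5).

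**Figure D2:**
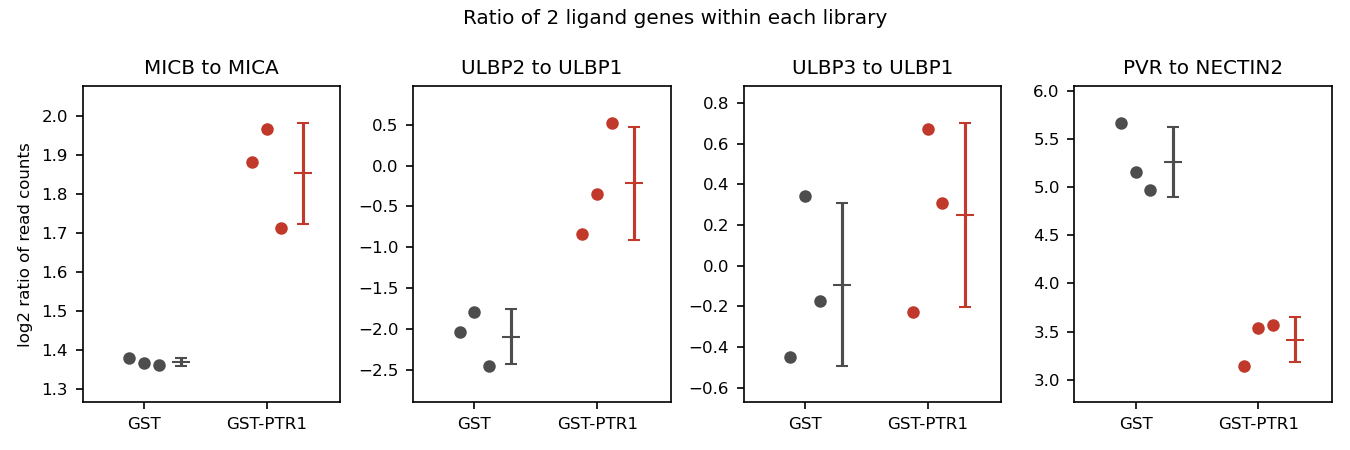
Log2 ratio of the read counts of 2 ligand genes within each library (vertical axes; 0.5 added to each count), with points for the 3 GST (grey) and 3 GST-PTR1 (red) libraries and bars for mean ± SD. The MICB to MICA ratio sits between 1.36 and 1.38 with GST and between 1.71 and 1.97 with GST-PTR1; the ULBP3 to ULBP1 ratio is the one that overlaps between treatments.

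The 5 NKG2D ligands were also summed. Their summed RPKM was 31.7 ± 1.14 (SD, n = 3) with GST and 30.8 ± 0.0941 (SD, n = 3) with GST-PTR1 on TMM-scaled totals, and 33.9 against 28.8 on unscaled totals. MICB made up 52.5% of the sum with GST and 59.9% with GST-PTR1. ULBP1 and ULBP2 were each below 1 RPKM in every library.

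PVR and NECTIN2, adhesion molecules of the nectin family that share the receptor DNAM-1, lie on chromosome 19, and only NECTIN2 passed the test. NECTIN2 (chr19:45349432-45392485, GRCh37, plus strand) had 5, 9 and 12 counts with GST and 37, 44 and 52 counts with GST-PTR1. In RPKM it stood at 0.0801, 0.114 and 0.128 with GST and at 0.443, 0.430 and 0.352 with GST-PTR1, a wide gap with no overlap. NECTIN2 rose by a log2 fold change of 1.87 (SE 0.29, 95% interval 1.24 to 2.52, edgeR adjusted p = 0.00112). As 2 of its GST libraries reached the filter, where 3 libraries are needed, it too was tested only through its GST-PTR1 libraries, and with at least 10 counts required in every library it was not tested. Its log2 fold change was 1.66 to 2.03 over the alternative fits that tested it, and 1.83 with all libraries thinned to the smallest total.

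The promoter of NECTIN2 (GRCh38.p14, chr19:44846047-44846346, plus strand), printed because its transcript had the largest log2 fold change of the 10 members, is marked in the same way.
NECTIN2: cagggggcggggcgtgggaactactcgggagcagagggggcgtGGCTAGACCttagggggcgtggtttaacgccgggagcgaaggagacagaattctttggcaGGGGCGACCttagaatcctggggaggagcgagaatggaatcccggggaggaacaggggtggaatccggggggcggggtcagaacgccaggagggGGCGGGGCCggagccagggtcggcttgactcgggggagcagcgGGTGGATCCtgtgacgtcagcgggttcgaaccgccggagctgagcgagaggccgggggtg

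PVR (chr19:45147098-45166850, plus strand) was much more abundant than its partner. It stood at 4.78, 4.55 and 4.45 RPKM with GST and 4.22, 5.36 and 4.50 RPKM with GST-PTR1. The treatments overlapped, and the log2 fold change was 0.03 (95% interval -0.25 to 0.31, edgeR adjusted p = 0.879). The log2 ratio of PVR to NECTIN2 reads was 5.27 ± 0.36 (SD, n = 3) with GST and 3.42 ± 0.24 (SD, n = 3) with GST-PTR1, without overlap (exact permutation p = 0.1, two-sided). PVR nevertheless made up 97.7% of the summed RPKM of both genes with GST and 91.9% with GST-PTR1. Of PVR's exon bases, 3.44% are shared on the same strand with CEACAM19, and reads there were not counted.

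NCR3LG1, CLEC2B and CD48 each engage a different NK receptor, and none passed the threshold. NCR3LG1 (chr11:17373273-17398888, plus strand) stood at 0.541, 0.390 and 0.305 RPKM with GST and 0.279, 0.267 and 0.221 RPKM with GST-PTR1. All GST-PTR1 libraries were lower, with a log2 fold change of -0.68 (SE 0.25, 95% interval -1.23 to -0.13, edgeR adjusted p = 0.0786). CLEC2B (chr12:10005583-10022735, minus strand) stood at 2.21, 3.21 and 2.48 RPKM with GST and 4.15, 2.97 and 4.73 RPKM with GST-PTR1. One GST-PTR1 library lay within the range of the GST libraries, and the log2 fold change was 0.58 (SE 0.20, 95% interval 0.14 to 1.03, edgeR adjusted p = 0.0626). Without that library, of 28837431 counts, the log2 fold change was 0.76 with an edgeR adjusted p of 0.0285, and leaving out the 20077280-count GST library gave an adjusted p of 0.0438. With each of the other 4 libraries left out the edgeR adjusted p was 0.0998 to 0.196, and on library totals 0.156.

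CD48, a lipid-anchored SLAM family member (chr1:160648536-160681641, minus strand), was the member closest to the threshold among those that missed it. It had 0.241, 0.588 and 0.530 RPKM with GST and 1.15, 0.749 and 0.793 RPKM with GST-PTR1. No libraries overlapped, and the log2 fold change was 0.93 (SE 0.31, 95% interval 0.25 to 1.62, edgeR adjusted p = 0.0566). DESeq2 put both CD48 (adjusted p = 0.0386) and CLEC2B (adjusted p = 0.0348) past the threshold. Of 15 alternatives, 2 put CD48 past it and 4 CLEC2B. With single libraries left out, the edgeR adjusted p of CD48 was 0.0627 to 0.128. It was 0.0989 on library totals and 0.278 with thinning. Libraries of the treatments were wholly apart for 7 of the 10 members, against 40.4% of all genes tested, with GST-PTR1 above for 4 (19.2% of all genes) and below for 3 (21.2%).

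**Figure D3:**
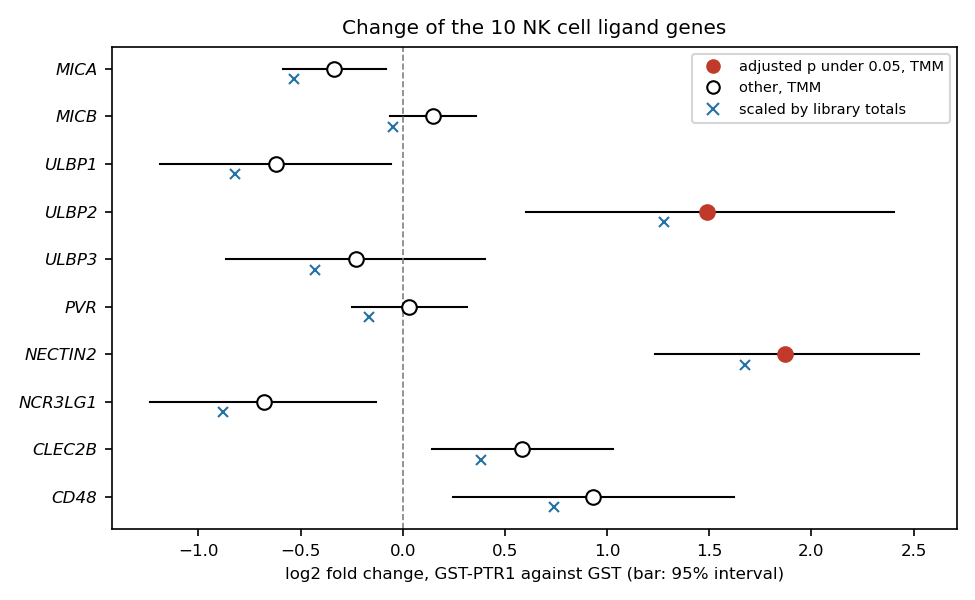
Log2 fold change of each ligand gene with GST-PTR1 against GST (horizontal axis) from edgeR with TMM scaling, with 95% intervals; red points have an adjusted p under 0.05 and crosses give the value on library totals. NECTIN2 at 1.87 and ULBP2 at 1.49 lie to the right, and the crosses lie to the left of every point.

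Scaling by library totals in place of TMM shifted all genes, whose median log2 fold change became -0.19. On that scale MICA (log2 fold change -0.53, adjusted p = 0.00750), ULBP1 (-0.82, adjusted p = 0.0422) and NCR3LG1 (-0.88, adjusted p = 0.0268) passed as lower. These were 3 of the 10 members, beside 3795 of all 16926 genes tested. With the shift taken off, the 3 lie near their TMM values. NECTIN2 (1.68) and ULBP2 (1.28) passed as higher under both, beside 927 of all genes on library totals. MICB (-0.05) and PVR (-0.17) changed sign on library totals, so their direction depended on the scaling. With the shift taken off, these 2 also lie near their TMM values, and neither passed the test on either scale.

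In order of RPKM with GST, MICB, MICA, PVR, CLEC2B and ULBP3 each exceeded the next without overlap of libraries. CD48, NCR3LG1 and ULBP1 overlapped with their neighbours in that order, and ULBP2 and then NECTIN2 came last. With GST-PTR1, PVR overlapped with CLEC2B, and ULBP3, CD48, ULBP2 and NECTIN2 formed an overlapping run above ULBP1 and NCR3LG1, which overlapped each other. NECTIN2 was thus the lowest member with GST and eighth with GST-PTR1. Over the 6 libraries, the mean RPKM of MICB was at the 79.8th percentile of the genes tested and that of NECTIN2 at the 6.36th.

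The genes whose log2 CPM was most like that of NECTIN2 over the 6 libraries were PES1, S100A14 and RAB12, with Pearson's r of 0.999, 0.998 and 0.997. For ULBP2 they were ERG28, SDHDP3 and PDZK1IP1, with r of 0.996, 0.996 and 0.995. The libraries form 2 treatment groups, so genes that differ between treatments tend to score high, and 1274 genes reached an r of 0.9 with NECTIN2 and 520 with ULBP2.

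Other genes of NK cell recognition were taken from lists by function. These lists were chosen with earlier results of these data known, so their counts and medians below are given as a description. Of 17 ligands of inhibitory NK receptors, 15 were tested, and 10 were higher (9.15% of all genes) and 0 lower (11.4%) with GST-PTR1. At an unadjusted p under 0.05, 12 were higher (16.4% of all genes) and 0 lower (18.8%). DESeq2 and voom called 11 higher and 0 lower each, against 1809 and 1549 of all 16926 genes higher and 1937 and 1972 lower. The list's median log2 fold change was 0.47, beside 0.01 for all genes. CEACAM1, a self-binding inhibitory receptor and ligand, rose from 0.467, 0.428 and 0.588 RPKM to 1.66, 2.09 and 1.72 (log2 fold change 1.87). CD274, which encodes PD-L1, rose from 3.83, 4.61 and 4.33 RPKM to 11.9, 15.1 and 16.7 (log2 fold change 1.77). The count of 10 depended on scaling and libraries: it was 3 on library totals, 5 without the GST library of 20077280 counts, and 6 without either the GST library of 23453473 or the GST-PTR1 library of 22874133 counts. In that order, these fits called 927 of 16926, 1354 of 17265, 1051 of 17269 and 1531 of 17360 genes higher.

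Among 10 adhesion and SLAM family partners of NK cells, 7 were tested, 3 of them higher (9.15% of all genes) and 1 lower (11.4%), all at least 2-fold (3.68% and 3.85%). ICAM1, a ligand of the integrin LFA-1, rose from 99.6, 90.1 and 102 RPKM to 486, 508 and 476 (log2 fold change 2.33). SLAMF7, a surface antigen of myeloma cells, rose from 1.29, 1.10 and 1.24 RPKM to 4.01, 2.90 and 3.48 (log2 fold change 1.52). CD58, a ligand of CD2, rose by a log2 fold change of 1.05, and LY9 fell by 1.53 on the log2 scale from under 0.2 RPKM. LY9 reached the filter in 3 GST libraries and 1 GST-PTR1 library, so it was tested only through the treatment in which it was high. With the GST library of 23453473 counts left out, 2 of the list were higher (1051 of all 17269 genes), and with each other library left out 3.

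Of 5 further ligands of activating receptors, only BAG6 could be tested, at a log2 fold change of -0.11 (edgeR adjusted p = 0.550). Of 9 genes linked to shedding of NKG2D ligands and NCR3LG1 from the cell surface, 5 were tested, and 0 were higher (9.15% of all genes) and 0 lower (11.4%) in edgeR, and likewise 0 in DESeq2 and voom, with 1 at an unadjusted p under 0.05 (35.2% of all genes). That gene was the protease ADAM10, with a log2 fold change of -0.25 (edgeR adjusted p = 0.104). The related ADAM17 had 0.23 (edgeR adjusted p = 0.151). Of 14 receptor genes that bind the ligands above, 0 passed the filter on low counts, and NCR1, NCR2, NCR3, TIGIT, CD244 and KLRB1 had 0 counts in every library.

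**Figure D4:**
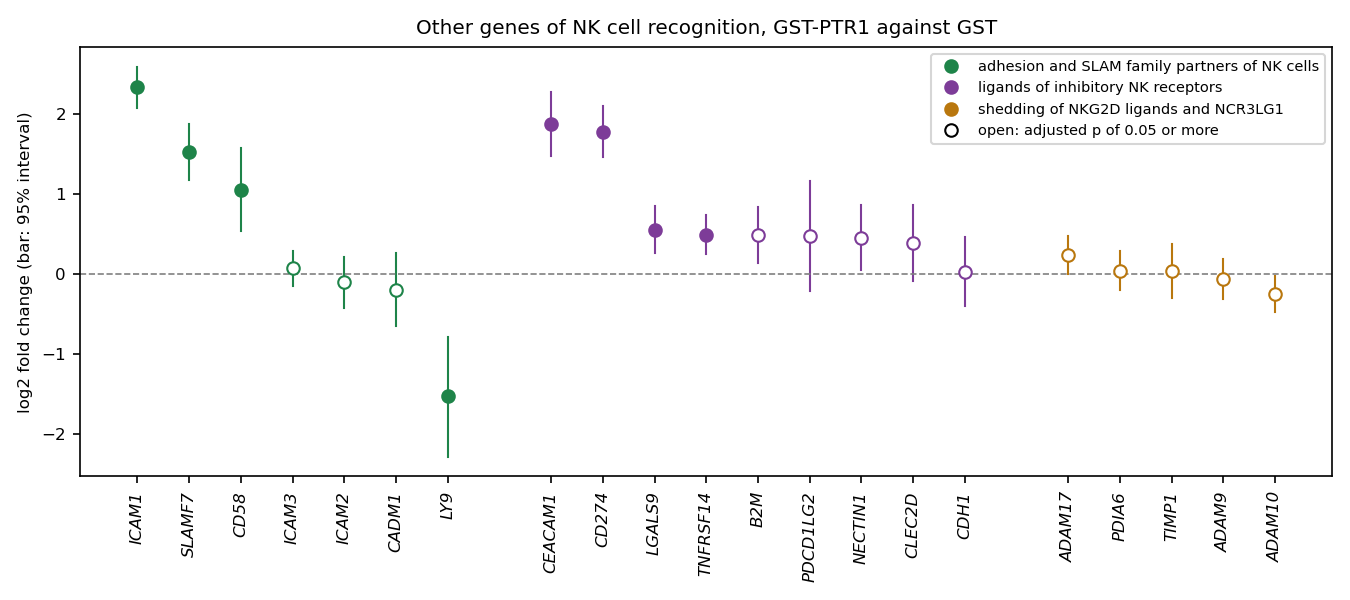
Log2 fold change (vertical axis) with 95% interval, from edgeR with TMM scaling, of the tested genes of adhesion and SLAM partners (green), ligands of inhibitory receptors other than class I heavy chains (purple) and shedding genes (brown), ordered by size within a list; filled points have an adjusted p under 0.05. ICAM1 is highest at 2.33, CEACAM1 and CD274 lead the inhibitory ligands, and the shedding genes lie near 0.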

How the data were processed

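Total RNA of RPMI8226 cells was sequenced in 3 biological replicates per treatment. The deposited values are whole-number counts of reads per gene, made by the authors with featureCounts version 1.5.0-p1 on the Ensembl release 75 annotation of GRCh37, by strand, leaving out reads with more than 1 mapping or gene. The deposited table was not normalized. The aligner is not given in the sources used here. Columns were assigned to a treatment by name.

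The main test was that of edgeR 4.0.16 in R 4.3.3 (TMM, filterByExpr with a minimum count of 10, glmQLFit, glmQLFTest) on counts, with Benjamini-Hochberg adjustment over 16926 genes. The filter came to 0.432 CPM in at least 3 libraries. RPKM used TMM-scaled totals and the exon lengths of the table. Promoters came from RefSeq (GRCh38.p14), and the motifs were set after a first search with longer forms. Alternatives used DESeq2 1.42.0 and limma 3.58.1. Tests were first run on simulated data. Members and lists were chosen with earlier results of these data known. All members were named, and of other lists the genes changed at least 2-fold, or the 2 with the smallest adjusted p. Intervals of fold changes measure the spread between libraries, and the floor of 3 counts covers only the counting error of the GST group. No libraries of a treatment differed by less than sampling noise.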

Additional observations from a re-analysis of the deposited data

How the results depend on the processing

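NECTIN2 kept its direction and its call in the 14 alternatives that tested it (adjusted p from 1.31e-06 to 0.00732), and ULBP2 its direction in 13 and its call in 9. In the main fit both passed the filter on low counts only because of their GST-PTR1 libraries, so the kept calls are given as a description. The number of members called higher was 2, but 4 with a filter of at least 1 count in any library (CLEC2B and CD48 added), 3 with DESeq2's test (NECTIN2, CLEC2B and CD48, without ULBP2), 0 with at least 10 counts in every library, where 8 members were left to test, and 1 with all libraries thinned to the smallest total, a setting chosen after seeing the data in which 9 members were tested and ULBP2 was not. Leaving out 1 library at a time gave 1 to 3. The number at least 2-fold higher was 1 with DESeq2's test, 0 with at least 10 counts in every library, 1 with thinning and 1 to 2 with libraries left out. On library totals 3 members were lower, 3 inhibitory ligands higher and 1 shedding gene lower. Inhibitory ligands higher ranged from 5 to 10 with libraries left out. With at least 1 count in any library, 1 further activating ligand (RAET1L, at 0 counts in every GST library) was higher, and with at least 10 in every library 0 adhesion partners were lower. The direction reversed for MICB (-0.046) and PVR (-0.17) on library totals, for ULBP3 (0.017) and PVR (-0.026) with thinning, and for PVR with single libraries left out (-0.069 to 0.10, the lowest without the GST-PTR1 library of 28837431 counts). The cause was not tested. Over all 16926 genes, library totals called 927 higher and 3795 lower, against 1549 and 1937. DESeq2's test called 1809 higher and 1937 lower of the same genes. The filter of at least 1 count in any library called 2608 of 31617 genes higher. That of at least 10 counts in every library called 1317 of 15359 higher, and thinning 1375 of 15884. With 1 library left out, 1051 to 1531 of 17159 to 17394 genes were higher. None of the 4 ratios changed direction. The numbers in the column names are not the replicate numbers of the labels, so the latter could not serve as a block. For the 4 libraries whose column numbers occur in both treatments, fitted after seeing the data, deviations of libraries with the same number had a correlation of -0.0212. With 2 shared numbers this is a single value, which cannot tell whether such libraries were handled together. With the column number as a replicate block, 2 members were higher (ULBP2 and NECTIN2) and 0 lower, as without it, and 6 inhibitory ligands were higher, against 7 without it. Of 17343 genes tested, 1603 were higher and 1715 lower with the block, against 1790 and 1848 without it. ULBP2 and NECTIN2 had 5 to 12 counts in the GST libraries.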

Other observations

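SLAMF1, a SLAM family receptor that binds itself, had 0 counts in all 3 GST libraries and 6, 5 and 15 counts in the GST-PTR1 libraries. That was 6.11-fold above a floor of 3 counts over the GST group, with no counting error allowed for the GST-PTR1 reads. SLAMF1 was too low for the filter of the report and was chosen after its values were seen, so no test is given.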
